A study of Mus musculus with 6 samples.

Results

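Mouse embryonic fibroblasts that carried hairpins against the ethanolamine kinases (shEtnk1/2) were compared with fibroblasts that carried a hairpin against Pcyt2 (shPcyt2), the enzyme that acts next in the same pathway. Both libraries were made from cells of the CBA/CaJ X C57BL/6J strain on day 2 of reprogramming in the defined medium iCD1, which contained ethanolamine (Etn). The reference for direction was a pair of libraries with a hairpin against luciferase (shLuc) in the same medium. An Etn-deprived library (shLuc hairpin, medium without Etn) and a library with a hairpin against Pebp1 (shPebp1, phosphatidylethanolamine-binding protein 1) gave further values for each gene. Poly(A) RNA was sequenced, and 1 RPKM value (reads per kilobase of transcript, scaled to library size) was deposited per gene and library. Genes were compared as log2(RPKM + 1), a scale that understates the change of low genes, if their mean over the 6 libraries was at least 1 RPKM and their name did not mark them as a short RNA. This left 11814 of 18301 gene names. The gene just inside the filter was Bmp15, with a mean of 1.0004 RPKM, and the gene just outside it was Vtcn1, with 0.99777 RPKM. How many hairpins each construct held, how the reprogramming factors were delivered and how many embryos gave the cells are not stated in the labels.

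The CDP-ethanolamine pathway makes phosphatidylethanolamine, a major phospholipid of cell membranes. Ethanolamine kinases phosphorylate ethanolamine, Pcyt2 joins the product to CTP to give CDP-ethanolamine, which is held to be the slow step, and an ethanolaminephosphotransferase places the head group on diacylglycerol. Phosphatidylethanolamine can also be made in mitochondria by decarboxylation of phosphatidylserine, and early reprogramming of fibroblasts includes a transition from mesenchymal towards epithelial expression.

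The libraries held between 18467583 and 20020465 reads in genes, with 19623532 in shEtnk1/2 and 19233255 in shPcyt2. Each knockdown had 1 library, so the difference between them had no replicate check. The spread used in the test came from the shLuc pair alone, and each other library was assumed to vary as that pair did. The labels do not tell whether the shLuc libraries came from separate cultures, and p therefore reflects the spread of that pair alone, which may be technical. Pebp1 stood at 250.4 RPKM in shLuc replicate 1 but at 100.7 RPKM in the library labelled shLuc replicate 2, about the level of the shPebp1 library at 99.6 RPKM. Whether that label is right was not tested, and every SE, adjusted p and position against shLuc rests on the pair being 2 shLuc libraries. The fibroblast genes Vim (vimentin), at 2567 RPKM in shEtnk1/2 and 2467 RPKM in shPcyt2, and Thy1, at 71.5 and 69.3 RPKM, were strongly expressed in both. The defining endothelial genes Pecam1 and Cdh5 had 0 reads in shEtnk1/2 and 4 and 6 reads in shPcyt2, and Ptprc, which marks all leukocytes, had 15 and 5 reads. Other genes listed as markers of such cells were expressed. The endothelial list's Tek stood at 21.1 RPKM in shEtnk1/2 and 20.7 in shPcyt2, and Eng at 18.7 and 17.6 RPKM. Lyz2, of the macrophage list, stood at 52.5 and 41.7 RPKM.

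The targets were lowered to different extents. Etnk1, ethanolamine kinase 1 (mm10, chromosome 6, positions 143167230 to 143208547), stood at 12.5 RPKM (95% Poisson interval 11.9 to 13.2, counting error only) with shEtnk1/2 and at 19.8 RPKM (19.1 to 20.6) with shPcyt2. Its shLuc values were 21.0 and 21.4 RPKM, Etn-deprived cells had 23.7 RPKM and shPebp1 cells 22.02 RPKM. The shEtnk1/2 library thus lay below all 5 others, at 59.1% of the shLuc mean and 63.2% of shPcyt2 (log2 difference from shPcyt2 -0.62, SE 0.11, limma adjusted p = 0.00141). Etnk2, the second kinase (chromosome 1, 133363572 to 133380319), lay under the filter, with 15 reads in shEtnk1/2, 27 in shPcyt2 and 21 and 45 in the shLuc libraries. Both knockdown values of Etnk2 fell within or close to the gap between the shLuc libraries, so a change was not detectable at this depth.

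Pcyt2 itself (chromosome 11, 120610087 to 120617890) stood at 29.9 RPKM (28.1 to 31.8) with shPcyt2 and at 35.6 RPKM (33.6 to 37.5) with shEtnk1/2. The shLuc libraries had 42.0 and 40.0 RPKM, Etn-deprived cells 33.5 RPKM and shPebp1 cells 38.3 RPKM. The shPcyt2 library was the lowest of the 6, at 72.9% of the shLuc mean, and shEtnk1/2 stood at 86.6%. The difference from shLuc passed the test (-0.44, SE 0.08, limma adjusted p = 0.0415), but the difference between the knockdowns did not (0.24, SE 0.10, limma adjusted p = 0.222). A knockdown of 1 enzyme and a stronger or weaker knockdown of the pathway cannot be told apart in these libraries, because remaining target RNA differed between them.

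Of the other genes that act on ethanolamine or its CDP form, none differed past the threshold between the knockdowns. Chka, a choline kinase that can also phosphorylate ethanolamine, stood at 4.77 RPKM in shEtnk1/2 and 3.73 RPKM in shPcyt2, beside 4.61 and 4.27 RPKM in shLuc (difference 0.29, SE 0.17, limma adjusted p = 0.469). Cept1, which transfers choline or ethanolamine head groups, stood at 11.7 RPKM in both. Of 5 pathway genes over the filter, Etnk1 was the 1 called.

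**Figure D1:**
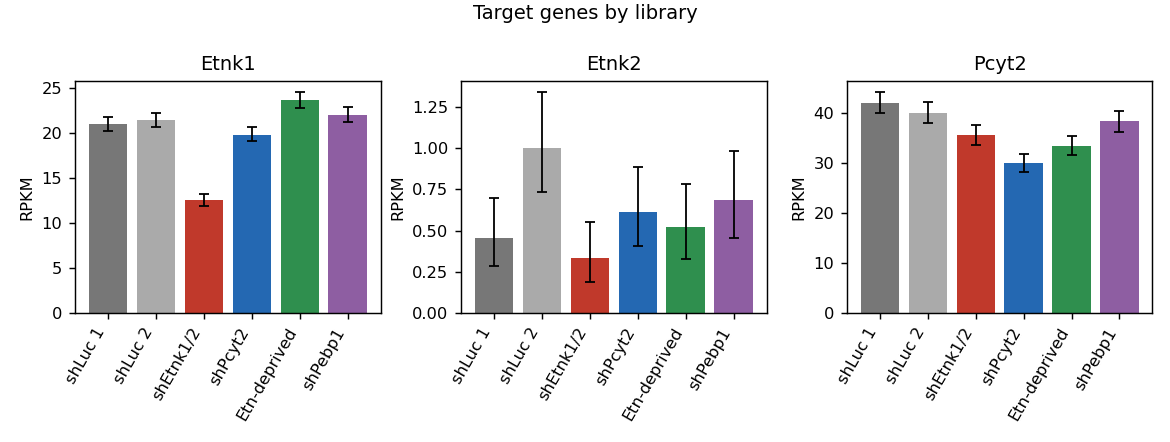
RPKM of Etnk1, Etnk2 and Pcyt2 in each of the 6 libraries, 1 bar per library, with 95% Poisson intervals from the recovered reads as error bars. Etnk1 is lowest in shEtnk1/2 (12.5 RPKM) and Pcyt2 lowest in shPcyt2 (29.9 RPKM), while the shLuc libraries differ in Etnk2 (21 and 45 reads).

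Across all genes, limma called 375 of 11814 different between the knockdowns (3.17%), 60 higher (0.508%) and 315 lower (2.67%) in shEtnk1/2 than in shPcyt2. Genes of the extracellular matrix were among those higher, and genes of short transcripts, among them subunits of ribosomes and of the respiratory chain, among those lower. The typical called gene differed by little: the median log2 difference was 0.43 for those higher and -0.46 for those lower, while the median of all genes was -0.04. By size alone, 251 genes (2.12%) differed by at least 0.5 log2 units and by more than the shLuc pair did, 50 higher (0.423%) and 201 lower (1.7%), whereas 141 genes (1.19%) lay that far apart between the shLuc libraries. At 1 log2 unit there were 1 higher (0.00846%) and 10 lower (0.0846%), beside 11 (0.0931%) between the shLuc libraries. The split by direction depended on the scaling: 24 higher and 62 lower with libraries scaled to a common median ratio, 18 and 51 after quantile normalization, and 95 and 166 with limma-voom on recovered reads. Without either shLuc library, where the spread has to come from unlike treatments, 0 genes were called, with 506 and 435 at an unadjusted p under 0.05.

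Most of the called genes lay apart in the shEtnk1/2 library. A library was taken as apart where it lay at least 0.25 log2 units beyond the nearer shLuc library. Of the 60 genes called higher, shEtnk1/2 alone lay apart above shLuc in 51 and shPcyt2 alone lay apart below it in 2. Of the 315 called lower, shEtnk1/2 alone lay apart below shLuc in 192, shPcyt2 alone apart above it in 14, both apart on opposite sides in 7, and neither in 100. Over all 11814 genes, shEtnk1/2 alone lay apart in 373 above and 924 below, and shPcyt2 alone in 110 above and 141 below. Against shLuc, limma called 235 genes higher (1.99%) and 560 lower (4.74%) in shEtnk1/2, and 3 higher (0.0254%) and 2 lower (0.0169%) in shPcyt2. Both comparisons use the same shLuc pair, so these counts describe the position of the libraries and are not separate evidence.

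**Figure D2:**
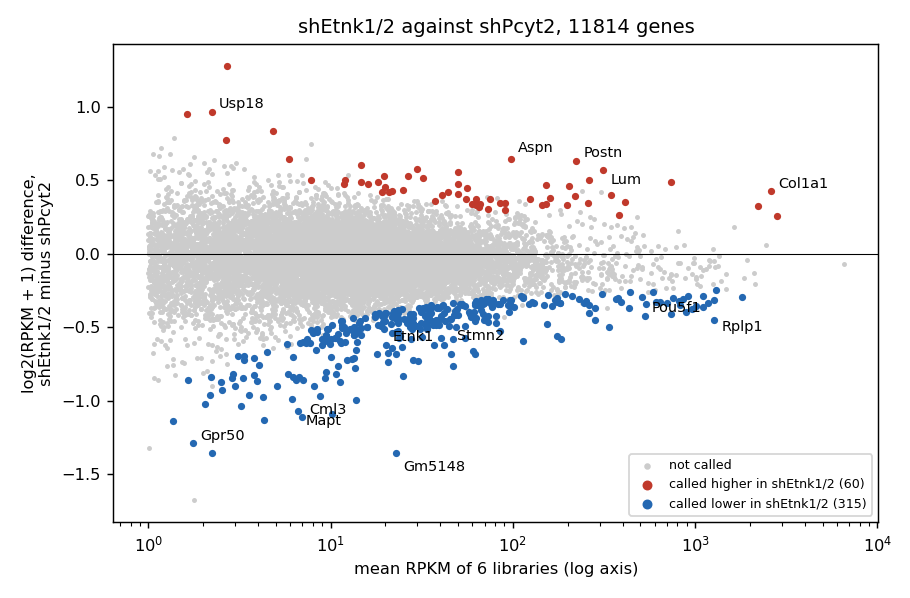
Difference in log2(RPKM + 1) between shEtnk1/2 and shPcyt2 against the mean RPKM of the 6 libraries (log axis), 1 point per gene for 11814 genes. The 60 genes called higher (red) include matrix genes of high abundance such as Col1a1, and most of the 315 called lower (blue) lie between -0.25 and -1.

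Small leucine-rich proteoglycans, which bind collagen fibrils and set their spacing, stood higher in shEtnk1/2 than in shPcyt2. Of 12 listed genes 10 were measured, and 6 were called higher and none lower (background 0.508% higher), with a median difference of 0.49 against -0.04 for all genes. Aspn (asporin, chromosome 13, 49544443 to 49567562) stood at 137.4 RPKM in shEtnk1/2 and 87.6 RPKM in shPcyt2, with 82.2 and 83.4 RPKM in shLuc, 108.7 RPKM in Etn-deprived and 87.2 RPKM in shPebp1. The shEtnk1/2 value was the highest of the 6, and shPcyt2 lay close to shLuc (difference 0.64, SE 0.08, limma adjusted p = 9.4e-05). Lum (lumican, chromosome 10, 97565501 to 97572703) was likewise highest in shEtnk1/2, with 424 RPKM in shEtnk1/2, 285 in shPcyt2, 279 and 272 in shLuc, 318 in Etn-deprived and 296 in shPebp1 (difference 0.57, SE 0.08, limma adjusted p = 9.4e-05). These were also the 2 members called once the trend of the difference with transcript length was removed, and limma-voom called 7.

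Ogn (osteoglycin) stood at 47.4 RPKM in shEtnk1/2, 32.9 in shPcyt2, 24.9 and 28.2 in shLuc, 38.0 in Etn-deprived and 20.6 in shPebp1 (difference 0.51, SE 0.11, limma adjusted p = 0.00705). For this gene shPcyt2 also lay above both shLuc libraries. Dcn (decorin) stood at 353 RPKM in shEtnk1/2 and 250 in shPcyt2, the latter within the shLuc values of 258 and 224 RPKM (difference 0.50, SE 0.09, limma adjusted p = 0.00675). Of the 4 members that did not pass, Fmod (fibromodulin) had the largest difference at 0.43 (SE 0.19), and Prelp stood at -0.01 (SE 0.13). Kera (keratocan, known from the cornea) at 26.8 and 18.8 RPKM and Bgn (biglycan) at 1023 and 728 RPKM, both named after their values were seen, differed by 0.49 each. Several of these genes are neighbours: Dcn, Lum and Kera follow each other on chromosome 10 with gaps of 47339 and 34502 bases, and Aspn and Ogn lie 40509 bases apart on chromosome 13. They formed the 3 pairs of adjacent called genes within 100 kb that were both higher. In all there were 35 adjacent called pairs, of which 33 had the same direction. Omd, also of the list, lies between Aspn and Ogn and was not called (0.36, SE 0.23). Because 315 of the 375 called genes were lower, called genes often share a direction whatever their position. The share for neighbouring genes in general was not computed, so the pair count is a description only.

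Since 6 of the 10 were called in 1 direction, the 120 bases before the RefSeq start are shown for Kera, Aspn and Ogn. Those of Postn, a matrix gene described next, are shown too (GRCm38.p6, gene strand, all on the plus strand). No window was matched for Dcn or Lum, and windows of the other members were not looked up for display. Capitals mark a CCAAT box on either strand (CCAAT or ATTGG), the letters GGAATG, to which TEAD factors bind, or the letters TATAAA (gene strand only). The start used for Ogn lies 56 bases from the start of the authors' row, and those of the others at 0 bases.
Kera chr10:97607085-97607204: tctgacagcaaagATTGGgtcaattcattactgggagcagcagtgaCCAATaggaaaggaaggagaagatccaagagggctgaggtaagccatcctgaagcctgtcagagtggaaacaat
Aspn chr13:49544323-49544442: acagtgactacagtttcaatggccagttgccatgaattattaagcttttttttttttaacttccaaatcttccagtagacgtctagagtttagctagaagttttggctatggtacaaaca
Ogn chr13:49607895-49608014: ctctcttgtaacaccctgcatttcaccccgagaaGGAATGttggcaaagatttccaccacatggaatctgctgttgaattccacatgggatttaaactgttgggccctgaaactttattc
Postn chr3:54360987-54361106: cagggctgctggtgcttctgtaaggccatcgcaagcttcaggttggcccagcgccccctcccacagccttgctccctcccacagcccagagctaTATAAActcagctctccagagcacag

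The windows shared none of the letters searched. Kera held the CCAAT box on both strands, Ogn the letters GGAATG, Postn TATAAA 26 bases before the start, and Aspn none of the motifs. RefSeq windows of this length were matched for 8956 of the 11814 genes. TATAAA stood in 4 of 39 genes called higher (10.3%), 7 of 240 called lower (2.92%) and 1.73% of all matched genes, the 4 being C1qtnf3, Col3a1, Igfbp4 and Postn (the first 2 named after their values were seen). It lay 6, 117, 28 and 26 bases before their starts. CCAAT on either strand stood in 17.9% of those higher, 29.2% of those lower and 25.9% of all. The GC box GGGCGG on either strand stood in 38.5%, 50.4% and 52.9%, and GGAATG in 5.13%, 2.92% and 4.12%. These matches are descriptions of the letters and say nothing of a factor.

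Fibrillar and associated collagens, the main tensile proteins of connective tissue, were called higher in shEtnk1/2 in 6 of 18 measured members (background 0.508%) and lower in none, with a median difference of 0.26. Col12a1, a collagen that decorates fibrils, stood at 265 RPKM in shEtnk1/2, 193 in shPcyt2, 182 and 175 in shLuc, 225 in Etn-deprived and 176 in shPebp1 (difference 0.46, SE 0.08, limma adjusted p = 0.000981). Col1a1, a chain of type I collagen, stood at 3600 RPKM in shEtnk1/2, 2683 in shPcyt2, 2322 and 2523 in shLuc, 2581 in Etn-deprived and 2002 in shPebp1 (difference 0.42, SE 0.07, limma adjusted p = 0.000906). In both, shEtnk1/2 was the highest library and shPcyt2 stood slightly above the shLuc pair. Col5a1 (0.34) and Col6a3 (0.33) were called too, as were Col3a1 (0.32) and Col1a2 (0.25), the last 2 named after their values were seen. The list's summed level was 12269 RPKM in shEtnk1/2 and 9967 in shPcyt2, beside 9484 and 9626 in shLuc. None of the 6 calls remained with the length trend removed, where the list's median was 0.22, and limma-voom called 10 members.

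Matricellular and elastic matrix genes were higher in shEtnk1/2 in all 17 measured members by sign, and 5 of 17 were called (background 0.508%). Among them Eln (0.01, SE 0.11) and Ctgf (0.01, SE 0.12) stood close to 0, and the median of all genes was -0.04. Postn (periostin, chromosome 3, 54361107 to 54391041) stood at 346 RPKM in shEtnk1/2, 222 in shPcyt2, 170 and 201 in shLuc, 250 in Etn-deprived and 153 in shPebp1. The shEtnk1/2 library was the highest, followed by Etn-deprived and then shPcyt2 (difference 0.63, SE 0.11, limma adjusted p = 0.0131). Lox, lysyl oxidase, which cross-links collagen, stood at 199 RPKM in shEtnk1/2, 144 in shPcyt2 and 132 and 138 in shLuc (difference 0.46, SE 0.08, limma adjusted p = 0.00107). The adhesion-modulating glycoproteins Thbs1 (0.40) and Tnc (0.34) were called higher, and so was Thbs2 (0.33), named after its value was seen. The list's median was 0.19, and none of the 5 was called with the length trend removed, where Postn was at 0.62 and Lox at 0.43.

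Of 25 measured genes that mark mesenchymal cells, 3 were called higher (background 0.508%) and 1 lower, with 22 above 0. The list's median was 0.22, against -0.04 for all genes. Cdh11, the cadherin of mesenchymal cells, stood at 271 RPKM in shEtnk1/2, 206 in shPcyt2, 206 and 197 in shLuc, 238 in Etn-deprived and 205 in shPebp1 (difference 0.39, SE 0.08, limma adjusted p = 0.00419). Here shPcyt2 was level with shLuc. Snai2, a repressor of E-cadherin, stood at 24.4 RPKM in shEtnk1/2, 18.0 in shPcyt2 and 20 and 20.2 in shLuc, so the knockdowns lay on either side of the reference (difference 0.42, SE 0.11, limma adjusted p = 0.031). Fn1, fibronectin, differed by 0.27 (SE 0.07, limma adjusted p = 0.0452), and Nt5e (the surface enzyme CD73, named after its value was seen) was lower, at 62.1 against 77.4 RPKM (-0.31, SE 0.09, limma adjusted p = 0.0485). Snai1 at 0.35 (SE 0.17) and Pdgfra at 0.34 (SE 0.10) did not pass the test, and Thy1 differed by 0.04 (SE 0.09).

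Prrx2, a homeobox gene of embryonic mesenchyme, and Lgr5, a receptor for R-spondins, were among the 12 largest differences of the genes called higher. Prrx2 stood at 66.6 RPKM in shEtnk1/2, 45.0 in shPcyt2, 49.4 and 44.8 in shLuc, 49.2 in Etn-deprived and 46.0 in shPebp1 (difference 0.56, SE 0.10, limma adjusted p = 0.00125). It was higher in shEtnk1/2 than in every other library, and it was called again with the length trend removed and with limma-voom. Lgr5 stood at 37.6 RPKM in shEtnk1/2, 24.9 in shPcyt2 and 29.0 and 23.4 in shLuc, with Etn-deprived at 34.5 RPKM, so shPcyt2 lay within the shLuc pair (difference 0.58, SE 0.13, limma adjusted p = 0.0369). Chrna7, a subunit of nicotinic acetylcholine receptors, differed by 0.64 (SE 0.16, limma adjusted p = 0.0184), at 7.503 against 4.44 RPKM. The largest difference of all 60, 1.28 for DQ267100, came from a row of 71 nt with 2 reads in shEtnk1/2, 0 in shPcyt2 and 4 in each shLuc library, and no fold can be read from it. The long noncoding RNA Lincrna-cox2 had 93 reads in shEtnk1/2, 31 in shPcyt2 and 53 and 43 in shLuc (0.95, SE 0.22, limma adjusted p = 0.0162). The unnamed locus 4833427G06Rik stood at 7.77 RPKM in shEtnk1/2, 3.93 in shPcyt2 and 5.57 and 4.66 in shLuc (0.83, SE 0.17, limma adjusted p = 0.00586), so in both of these the knockdowns lay on either side of the shLuc pair.

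Genes of smooth muscle type contraction and targets of TGF-beta and bone morphogenetic proteins were not called, 0 of 12 and 0 of 20, although their medians of 0.19 and 0.20 lay on the same side. Some contractile genes varied between the shLuc libraries themselves: Tagln (transgelin) had 68.8 and 92.7 RPKM there, 132 in shEtnk1/2 and 105 in shPcyt2 (difference 0.33, SE 0.33). Others were close in shLuc and higher in both knockdowns. Cnn2 had 189 and 191 RPKM in shLuc, 247 in shEtnk1/2 and 217 in shPcyt2 (difference 0.19, SE 0.08). Tpm2 had 21.4 and 22.4 RPKM in shLuc, 31.2 in shEtnk1/2 and 26.7 in shPcyt2 (difference 0.22, SE 0.11). The largest difference among TGF-beta targets was Itga11, an integrin that binds collagen, at 23.4 against 18.0 RPKM (0.36, SE 0.12, limma adjusted p = 0.101). In the insulin-like growth factor system 2 of 14 genes were called, both higher (background 0.508%). These were Igfbp4 (183 against 140 RPKM, 0.38, SE 0.08, limma adjusted p = 0.00825) and Igfbp7 (84.2 against 66.3 RPKM, 0.34, SE 0.09, limma adjusted p = 0.0499). Both encode secreted binding proteins, and Igf2 itself differed by 0.25 without passing (SE 0.09). Of the other binding proteins, Igfbp3 differed by 0.42 (SE 0.11) without passing, and Igfbp5 lay at -0.17 (SE 0.11).

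**Figure D3:**
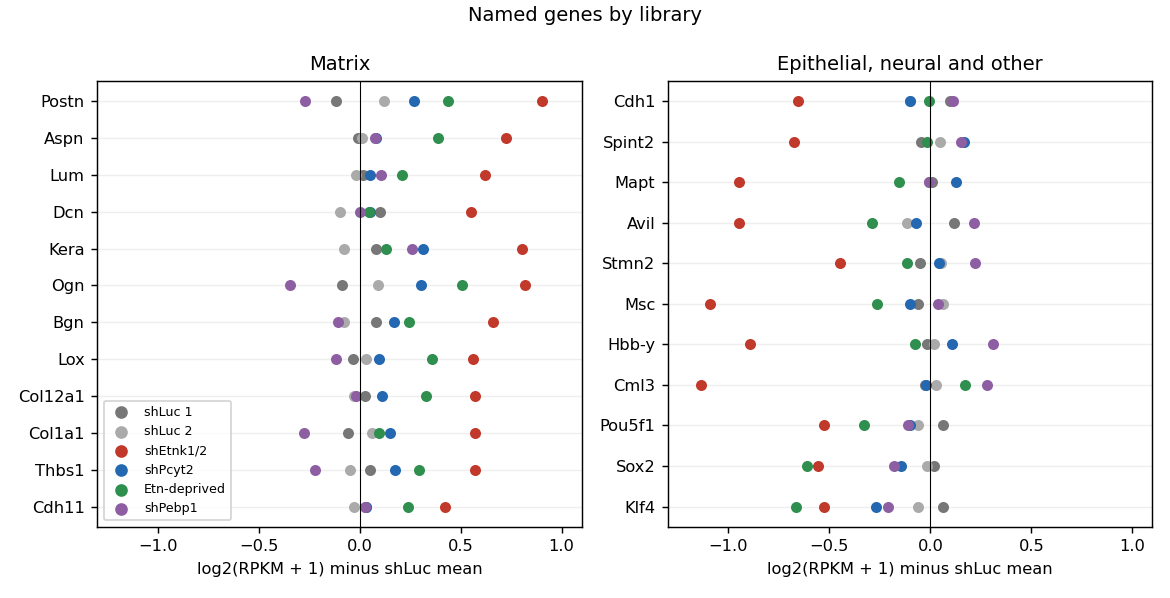
Difference of each library from the mean of the shLuc pair in log2(RPKM + 1), 1 point per library, for 12 matrix or mesenchymal genes (left) and 11 epithelial, neural or other genes (right). The red shEtnk1/2 point is the highest library for the 12 genes at left, for example at 0.90 for Postn, while the blue shPcyt2 points lie nearer to the shLuc pair.

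Among 12 measured epithelial genes 2 were called lower in shEtnk1/2 than in shPcyt2 (background 2.67%) and none higher, with a median of -0.12. Cdh1 (E-cadherin, which joins epithelial cells) stood at 6.04 RPKM in shEtnk1/2, 9.34 in shPcyt2, 10.9 and 9.35 in shLuc, 10.04 in Etn-deprived and 10.98 in shPebp1. The shEtnk1/2 library alone stood clear of the other 5, which included shPcyt2 (difference -0.55, SE 0.14, limma adjusted p = 0.0246). Spint2, an inhibitor of serine proteases of epithelia, stood at 3.64 RPKM in shEtnk1/2, 7.32 in shPcyt2, 6.18 and 6.65 in shLuc, 6.33 in Etn-deprived and 7.25 in shPebp1 (difference -0.84, SE 0.15, limma adjusted p = 0.00166). St14 (matriptase, an epithelial protease) at -0.54 and Cldn3 (a tight junction claudin) at -0.64 did not pass the test, and Epcam, at 0.91 and 0.98 RPKM, was scarcely expressed. Cdh3 (P-cadherin) went the other way without a call (difference 0.26, SE 0.18). It stood at 6.34 RPKM in shEtnk1/2, 5.12 in shPcyt2 and 3.28 and 4.18 in shLuc. Krt19 (0.17), Krt8 (0.05) and Tjp1 (0.00) were not lower in shEtnk1/2 than in shPcyt2 either. Krt19 lay below shLuc in both knockdowns, at 1.18 RPKM in shEtnk1/2 and 0.94 in shPcyt2, beside 1.66 and 1.70 in shLuc. With the length trend removed Cdh1 was at -0.58 and Spint2 at -0.78 and neither was called, and 11 of the 25 listed genes lay under the filter.

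The reprogramming factors Pou5f1 (Oct4) and Sox2 were lower in shEtnk1/2, 2 of 4 factors (background 2.67%). Pou5f1 stood at 412 RPKM in shEtnk1/2, 554 in shPcyt2, 620 and 569 in shLuc, 472 in Etn-deprived and 549 in shPebp1 (difference -0.43, SE 0.08, limma adjusted p = 0.00202). Sox2 stood at 209 RPKM in shEtnk1/2, 277 in shPcyt2, 311 and 303 in shLuc, 200 in Etn-deprived and 270 in shPebp1 (difference -0.41, SE 0.08, limma adjusted p = 0.00247). For both, shPcyt2 lay just below the shLuc pair and shEtnk1/2 further below. Klf4 stood at 262 RPKM in shEtnk1/2 and 314 in shPcyt2, beside 394 and 362 in shLuc, a difference that did not pass (-0.26, SE 0.08, limma adjusted p = 0.0785), and Myc differed by -0.01 (SE 0.14). The table does not part transgenes from endogenous copies. With the length trend removed Pou5f1 was at -0.36 and Sox2 at -0.39 and neither was called, and with limma-voom 3 factors were. Of 20 pluripotency genes 3 passed the filter and none was called, and Nanog had 6 and 18 reads.

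Some genes of neurons and glia were lower in shEtnk1/2 than in shPcyt2. Of 10 measured neural and glial genes 4 were called lower (background 2.67%) and none higher, with a median of -0.35 (8 of 18 listed lay under the filter). The neuronal genes Map2 (0.14, SE 0.13), Tubb3 (0.12, SE 0.15) and Gap43 (0.02, SE 0.09) lay slightly above 0. Not all of the list was therefore lower in shEtnk1/2 than in shPcyt2. Mapt (tau, which binds microtubules in axons; chromosome 11, 104231436 to 104332089) stood at 3.32 RPKM in shEtnk1/2, 8.08 in shPcyt2, 7.37 and 7.29 in shLuc, 6.49 in Etn-deprived and 7.30 in shPebp1. The shEtnk1/2 library had 353 reads and shPcyt2 842, a ratio of 0.411 with a 95% counting interval of 0.362 to 0.466 (difference -1.07, SE 0.15, limma adjusted p = 0.000165). Avil (advillin, an actin-binding protein of sensory neurons) stood at 5.99 against 11.8 RPKM (-0.87, SE 0.14, limma adjusted p = 0.000623). Stmn2 (stathmin 2, a microtubule regulator of neurons) stood at 33.5 against 47.5 RPKM (-0.49, SE 0.09, limma adjusted p = 0.00344). In these 3 genes shPcyt2 differed from the shLuc mean by at most 0.12 log2 units, and shEtnk1/2 lay below both shLuc libraries. In bulk RNA, fewer cells of a type and less RNA per cell cannot be told apart, and the list's summed level was 134 RPKM in shEtnk1/2 against 162 in shPcyt2 and 165 and 167 in shLuc.

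Genes of other kinds, most of them in none of the lists, filled the rest of the largest negative differences. Msc (musculin, a repressor of myogenesis) stood at 2.83 RPKM in shEtnk1/2, 6.61 in shPcyt2, 6.82 and 7.52 in shLuc, 5.79 in Etn-deprived and 7.38 in shPebp1 (difference -0.99, SE 0.15, limma adjusted p = 0.000557). It was the 1 member called of 5 measured skeletal muscle markers (background 2.67%), whose summed level was 9.05 RPKM in shEtnk1/2 against 14.0 RPKM in shPcyt2. Acta1 alone of the 5 went the other way, at 3.45 against 2.17 RPKM, with 0.76 and 2.81 RPKM in shLuc. Hbb-y, an embryonic beta-type globin, stood at 7.28 RPKM in shEtnk1/2, 15.5 in shPcyt2, 14.2 and 14.5 in shLuc, 13.6 in Etn-deprived and 18.0 in shPebp1 (difference -0.996, SE 0.12, limma adjusted p = 5.47e-05). Cml3 stood at 2.75 RPKM in shEtnk1/2 and between 7.09 and 9.02 in the other 5 libraries (difference -1.12, SE 0.15, limma adjusted p = 9.4e-05). Acsbg1, a long-chain acyl-CoA synthetase of brain, differed by -1.09 (4.40 against 10.5 RPKM), Tmprss5, a membrane-bound serine protease, by -1.13 (1.78 against 5.09 RPKM), Fetub (fetuin-B) by -1.04 and Dmrtc2 by -1.02. In each of these the shEtnk1/2 library was the lowest of the 6.

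Interferon response genes were called in 2 of 23 cases, both higher in shEtnk1/2 (background 0.508%), with a list median of 0.20. Usp18, which removes the ubiquitin-like ISG15 from proteins, stood at 3.29 RPKM in shEtnk1/2, 1.20 in shPcyt2, 1.57 and 2.27 in shLuc, 2.76 in Etn-deprived and 2.34 in shPebp1. The shPcyt2 library was the lowest of the 6 and shEtnk1/2 the highest, from 41 and 115 reads (difference 0.97, SE 0.22, limma adjusted p = 0.0131). Ifit1, which binds foreign RNA, stood at 3.76 RPKM in shEtnk1/2, 1.78 in shPcyt2, 2.39 and 1.68 in shLuc, 3.46 in Etn-deprived and 2.89 in shPebp1 (difference 0.78, SE 0.21, limma adjusted p = 0.0409). Cxcl10, a chemokine induced by interferon, at 2.02 against 0.89 RPKM did not pass (0.68, SE 0.24, limma adjusted p = 0.155), and Psmb8, a subunit of the immunoproteasome, was at -0.58 (SE 0.23). With the length trend removed Usp18 was at 1.01 and Ifit1 at 0.78 and neither was called. Macrophage markers had a summed level of 64.8 RPKM in shEtnk1/2 and 50.6 in shPcyt2, beside 50.8 and 53.6 in shLuc. Most of each sum was Lyz2, at 52.5 RPKM in shEtnk1/2 and 41.7 in shPcyt2, and Cd14 alone lay below 0 (-0.05, SE 0.22). None of the 5 measured was called and 7 of 12 listed lay under the filter, and their part in the result was not tested.

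Some subunits of the respiratory chain and of ribosomes were lower in shEtnk1/2 than in shPcyt2. Of 37 nuclear genes of oxidative phosphorylation all had a difference below 0, and 14 were called lower (background 2.67%). The list's median was -0.23, against -0.04 for all genes. Ndufa12, an accessory subunit of complex I, stood at 44.6 RPKM in shEtnk1/2, 71.2 in shPcyt2, 73.0 and 74.5 in shLuc, 37.0 in Etn-deprived and 63.0 in shPebp1 (difference -0.66, SE 0.09, limma adjusted p = 0.000115). Its shPcyt2 value lay near the shLuc pair, and shEtnk1/2 and Etn-deprived lay well below it. Cox5b, a subunit of cytochrome c oxidase, stood at 93.8 RPKM in shEtnk1/2, 143 in shPcyt2, 127 and 117 in shLuc, 89.3 in Etn-deprived and 115 in shPebp1 (difference -0.60, SE 0.08, limma adjusted p = 0.000242). Here shPcyt2 was the highest of the 6, and the knockdowns lay on opposite sides of the shLuc pair. Ndufs6 (-0.68) and Ndufa2 (-0.58), also of complex I, were called as well.

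Of 50 cytosolic ribosomal proteins 17 were called lower (background 2.67%) and 49 lay below 0. The list's median was -0.20, beside -0.04 for all genes. Rplp1, a protein of the ribosomal stalk, stood at 1117 RPKM in shEtnk1/2, 1532 in shPcyt2, 1439 and 1339 in shLuc, 968 in Etn-deprived and 1233 in shPebp1 (difference -0.46, SE 0.07, limma adjusted p = 0.000557). Rplp2 (-0.41), Rpl35 (-0.40) and Rpl28 (-0.38) were the next largest. The list's summed level was 36943 RPKM in shEtnk1/2, 42798 in shPcyt2, 41477 and 39850 in shLuc, 34863 in Etn-deprived and 39778 in shPebp1, so shPcyt2 was the highest and Etn-deprived the lowest. Of 30 mitochondrial ribosomal proteins 6 were called lower (background 2.67%, list median -0.20). They were led by Mrps12 (29.0 against 41.9 RPKM, -0.52, SE 0.10, limma adjusted p = 0.00599) and Mrpl20 (-0.50). Mrpl14 belongs to the same machinery and was outside that list. Named after its values were seen, it stood at 19.1 RPKM in shEtnk1/2, 34.7 in shPcyt2 and 29.2 and 26.6 in shLuc (difference -0.83, SE 0.11, limma adjusted p = 9.4e-05).

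Transcript length moved with these differences. Among 332 genes with transcripts of up to 700 nt the median difference was -0.22 and 2 were called higher and 76 lower (23.5% called). The median rose through -0.12 (700 to 1500 nt), -0.05 (1500 to 3000 nt) and -0.01 (3000 to 5000 nt) to 0.02 in 2246 genes over 5000 nt, where 16 were called higher and 10 lower. The same bins had medians of -0.03, -0.01, 0.00, 0.00 and 0.01 between the shLuc libraries. Against shLuc the shortest genes stood at -0.17 in shEtnk1/2 and 0.05 in shPcyt2, and the longest at -0.04 and -0.06. Genes called lower had a median transcript of 1093 nt and those called higher of 2699 nt, beside 2931 nt over all genes. With the trend removed the genes called before had medians of 0.43 (higher) and -0.37 (lower), and 352 of the 375 were at an unadjusted p under 0.05. The prior degrees of freedom fell from 24.84 to 9.44, and 18 genes were called, 5 higher and 13 lower, and none of the 37 members of the oxidative phosphorylation list, whose median was then -0.15. The ribosomal lists had medians of -0.07 (cytosolic) and -0.09 (mitochondrial) after that removal, with 0 calls in each, so their difference cannot be told apart from one that goes with length.

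The genes called in the plain fit, with the length trend removed and by limma-voom were 15. With GC content and length removed, Gm5148 alone was called, out of 10014 genes with a GC value. Of the 15, Etnk1, Aspn, Lum, Prrx2, Mapt, Msc, Hbb-y, Cml3 and Mrpl14 are described above and Gm5148 in the next paragraph. The others, named after their values were seen, were all lower in shEtnk1/2. Stmn1 (stathmin 1, which destabilises microtubules) stood at 129 RPKM in shEtnk1/2, 191 in shPcyt2 and 191 and 189 in shLuc (difference -0.56, SE 0.08, limma adjusted p = 0.000193). Ano1 (a calcium-activated chloride channel) stood at 16.6 against 28.1 RPKM (-0.72), L1td1 (an RNA-binding protein of pluripotent cells) at 6.12 against 11.5 RPKM (-0.82), Prkcb (protein kinase C beta) at 5.48 against 10.7 RPKM (-0.85), and 1700084C01Rik differed by -0.78. For Stmn1, L1td1 and Prkcb, shPcyt2 was within or close to the shLuc values, and for Ano1 it lay below 33.2 and 31.1 RPKM in shLuc.

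**Figure D4:**
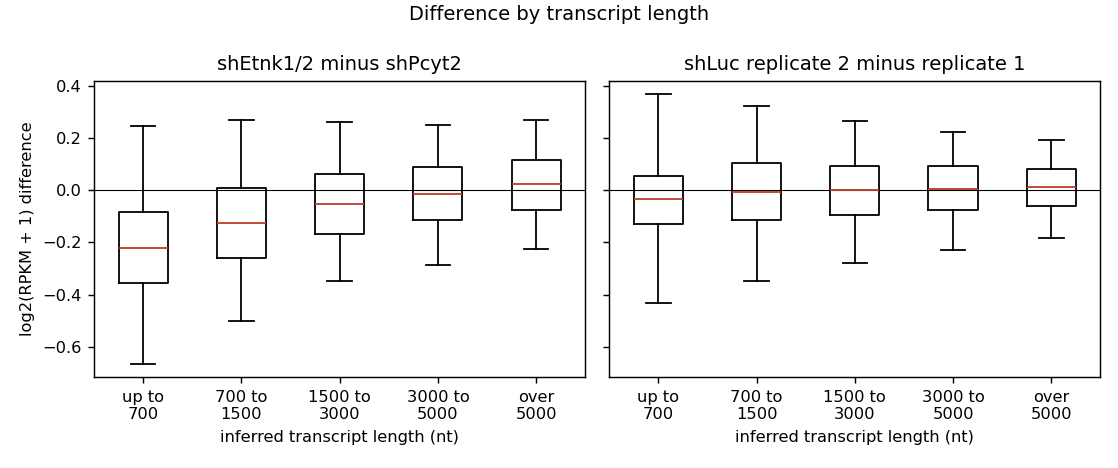
Difference in log2(RPKM + 1) by inferred transcript length in 5 bins, for shEtnk1/2 minus shPcyt2 (left) and for shLuc replicate 2 minus replicate 1 (right); boxes span the quartiles, red lines are medians and whiskers the 5th and 95th percentiles. Medians rise from -0.22 to 0.02 with length at left and stay between -0.03 and 0.01 at right.

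In the genes of this paragraph and the next, shPcyt2 stood apart from shLuc, alone or together with shEtnk1/2. Gm5148 (chromosome 3, 37714190 to 37724360) stood at 44.8 RPKM in shPcyt2 and 16.9 in shEtnk1/2, with 24.5 and 24.4 in shLuc, 8.98 in Etn-deprived and 17.1 in shPebp1. The knockdowns lay on opposite sides of a close shLuc pair (difference -1.36, SE 0.11, limma adjusted p = 2.6e-08). The authors' annotation matches this row to ribosomal protein S23, whose own gene Rps23 stood at 541 RPKM in shEtnk1/2 and 649 in shPcyt2, so reads may be shared between them and the value is uncertain. Gm12070, which the authors' annotation matches to glyceraldehyde-3-phosphate dehydrogenase, is uncertain for the same reason, at 3.29 RPKM in shPcyt2 and 0.95 in shEtnk1/2 (-1.14, SE 0.24, limma adjusted p = 0.00780). Rab26os had 24 reads in shPcyt2 and 6 in shEtnk1/2, and Gpr50, an orphan receptor related to melatonin receptors, 96 and 19 reads, with 76 and 54 in shLuc. Against shLuc, Rab26os stood at 0.70 (SE 0.19) in shPcyt2 and -0.65 (SE 0.19) in shEtnk1/2, and Gpr50 at 0.43 (SE 0.20) and -0.87 (SE 0.20), so that for Gpr50 shEtnk1/2 was the further of the 2.

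Of 16 called genes where shPcyt2 alone lay apart, 14 were higher in shPcyt2 and 2 lower. Of all 375 called genes 315 were lower in shEtnk1/2, and over all 11814 genes shPcyt2 alone lay apart in 110 above and 141 below. The split of the 16 is therefore not read as a result about them. Their median transcript was 720.5 nt long. Those named here other than Deb1 were chosen after their values were seen. Uqcc2, which helps to assemble complex III of the respiratory chain, stood at 41.7 RPKM in shPcyt2, 29.3 in shEtnk1/2 and 29.9 and 29.2 in shLuc (difference -0.49, SE 0.10, limma adjusted p = 0.00603). It also differed from shLuc in shPcyt2 (0.48, SE 0.09, limma adjusted p = 0.0313) and stood at -0.01 in shEtnk1/2. Urod, a decarboxylase of haem synthesis, stood at 41.1 against 29.0 RPKM with 33.5 and 33.4 in shLuc, and Smdt1, a regulator of the mitochondrial calcium uniporter, at 97.5 against 72.3 RPKM with 79.8 and 80.1 in shLuc. Deb1 went the other way, at 10.7 RPKM in shPcyt2, 16.7 in shEtnk1/2 and 14.6 and 15.5 in shLuc (0.60, SE 0.12, limma adjusted p = 0.00419). In 7 called genes both libraries lay at least 0.25 log2 units beyond the nearer shLuc library and on opposite sides. Besides Gm5148, Rab26os and Gpr50 these were Tomm7 (of the mitochondrial import pore; 8.40 RPKM in shEtnk1/2, 14.9 in shPcyt2, 12.2 and 12.1 in shLuc), S100a1, Psmg3 and Trappc2l.

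The remaining lists held few or no calls. Of NF-kB targets and chemokines 1 of 18 was called lower (background 2.67%), and the list's median was -0.00. That gene was Cebpd (a transcription factor of the acute phase), at 6.96 RPKM in shEtnk1/2, 12.0 in shPcyt2 and 14.4 and 15.9 in shLuc (difference -0.71, SE 0.12, limma adjusted p = 0.00116). Of p53 targets 1 of 19 was called lower (background 2.67%), Bax (which permeabilises mitochondria in apoptosis), at 91.6 against 118 RPKM (-0.36, SE 0.08, limma adjusted p = 0.0133). A single call is not read as a result about either list. No member was called of 28 genes of DNA replication and the cell cycle (median -0.13), 19 of glycolysis (-0.16), 26 of sterol and fatty acid synthesis (0.02), 23 of endoplasmic reticulum stress (0.00), 23 of LC3 lipidation and autophagy (-0.10), 11 of phosphatidylcholine synthesis (-0.03) or 9 of tendon, cartilage and bone (-0.03). The 11 genes of the phosphatidylserine route and of phosphatidylethanolamine turnover had a median of -0.07 and no call. The largest difference among them was that of Pemt, which methylates phosphatidylethanolamine to phosphatidylcholine, at 1.72 against 2.42 RPKM (-0.33, SE 0.21, limma adjusted p = 0.521). Adipocyte (4 measured), endothelial (2) and keratinocyte markers (2) held no call.

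**Figure D5:**
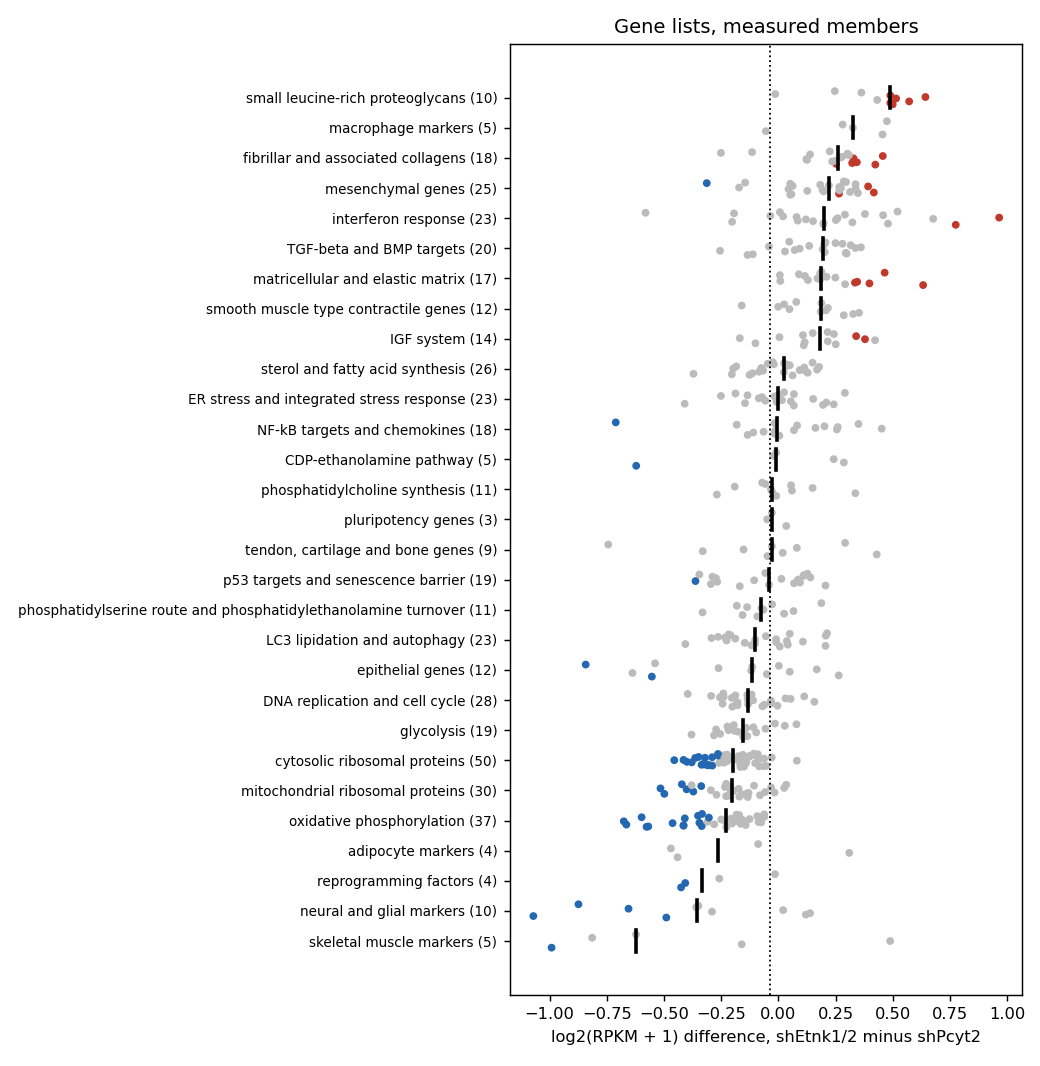
Difference in log2(RPKM + 1), shEtnk1/2 minus shPcyt2, of each measured member of 29 lists with 3 or more measured members; the number measured is in brackets, black bars are list medians, the dotted line is the median of all 11814 genes (-0.04), and red and blue points are members called higher and lower. Proteoglycans have the highest median (0.49) and skeletal muscle markers, with 5 members, the lowest (-0.62). That lowest median is the value of Mylpf, from 12 reads in shEtnk1/2 and 26 in shPcyt2, and Acta1 of the same list lies at 0.49.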

How the data were processed

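RPKM values were computed by the authors and deposited as 1 table of 18303 rows and 6 libraries. Per the submitters' processing notes, Bowtie 0.12.2 and build mm10 were used. The counting program, gene models and strand setting were not given in the sources used here. For all rows the values stood in ratios of whole numbers, from which reads and transcript lengths were inferred (96.9% of lengths whole within 0.02 nt). Reads or pairs cannot be told apart. Of 2 repeated symbols 1 row each was kept. Rows named Mir, Snor, Snord, Scarna or Rnu (352) and rows under 1 RPKM (6135 others) were left out.

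Values were analysed as log2(RPKM + 1) with limma 3.58.1 (R 4.3.3), trended and robust, in a model of 5 group means over 6 libraries, where the residual had 1 degree of freedom and the prior 24.84. P-values are two-sided and Benjamini-Hochberg adjusted over 11814 genes, with a threshold of 0.05. The script was tested on simulated data in which all libraries were drawn with the same spread. That test therefore cannot check whether the knockdown libraries vary as the shLuc pair did. Alternatives were other pseudocounts, filters and scalings, limma-voom on recovered reads, removal of the trend with length or with GC content and length, and omission of each shLuc library.

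The comparison and the 31 gene lists were chosen with earlier results of these data known. Named genes were the targets, the 12 largest called differences each way, up to 4 members of a list with the largest differences, and a panel (Cdh1, Epcam, Thy1, Fn1, Postn, Pou5f1, Sox2, Klf4, Myc, Cxcl10 and Gm5148). Others are said to be named after their values were seen. Promoter letters are from RefSeq (GRCm38.p6). Intervals and floors cover counting error only. One called member of the neural and glial list is not reported here by name.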

Additional observations from a re-analysis of the deposited data

Results flagged for a closer look

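In 3 of the genes with the 12 largest called differences each way, both knockdown libraries lay at least 0.25 log2 units beyond the nearer shLuc library and on opposite sides, and limma called the difference between them. These were Gm5148, with a log2 difference of -1.36, Rab26os, with -1.36, and Gpr50, with -1.29 (shEtnk1/2 minus shPcyt2). Each side is 1 library. Gm5148 may share reads with Rps23, and Rab26os rests on 6 and 24 reads.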

How the results depend on the processing

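No paired analysis was possible because only the shLuc group has replicate numbers. Of 375 calls (60 higher, 315 lower), 374 were shared with the fits at a pseudocount of 0.1 or 0.5. With short RNAs kept 110 were called (20 higher, 90 lower), with median ratios 86 (24, 62), after quantile normalization 69 (18, 51), with limma-voom 261 (95, 166; 188 shared), with the length trend removed 18 (5, 13), with GC content and length removed 1 (0, 1), and with no filter on low values 0 (2265 at an unadjusted p under 0.05). The prior degrees of freedom, 24.84 at first, were 9.24, 10.81, 9.65, 9.44, 8.32 and 0.66 in the 6 fits without voom, in that order, while the medians of the 60 and the 315 lay between 0.41 and 0.47 and between -0.35 and -0.46. Without shLuc replicate 1 or 2 the range was 0 to 0. The sign of the 375 was the same under every alternative that tested them, except 1 gene under quantile normalization. The size rule took 251 genes, 523 at a pseudocount of 0.1, 127 at 5 RPKM, 573 with limma-voom, 162 with GC content and length removed and 11 at 1 log2 unit. Of 60 named genes that were called, 12 stayed called with length removed, 36 with median ratios, 30 with quantile normalization and 42 with limma-voom. Named genes near 0 changed sign without a call. With median ratios and quantile normalization Myc was at 0.025 and 0.0261, Ept1 at 0.0194 and 0.0207 and Alpl at 0.0123 and 0.00989, and Epcam at 0.0311 with the latter. With length, and with GC content and length, removed, Myc was at 0.00229 and 0.0134, Tet1 at -0.0605 and -0.0963 and Tek at -0.0106 and -0.0245. The cause was not tested. With 1 library per knockdown, a difference between these libraries cannot be told apart from one between the knockdowns.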
